A study of Saccharomyces cerevisiae with 12 samples.

Results

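The genes described here encode the glyoxylate cycle, gluconeogenesis and the carriers and enzymes that feed them in budding yeast. They were chosen by systematic name: *CIT2* (YCR005C), *ICL1* (YER065C), *MLS1* (YNL117W), *MDH2* (YOL126C), *PCK1* (YKR097W), *FBP1* (YLR377C), *ACS1* (YAL054C), *SFC1* (YJR095W), *JEN1* (YKL217W) and *IDP2* (YLR174W), which makes 10 of the 7110 features in the count table. All 10 had counts. Poly(A)-selected RNA of *Saccharomyces cerevisiae* strain S288c was sequenced in 12 libraries, from cells grown to log phase in synthetic complete medium with glucose. There were 3 libraries each of WT cells and of *ups1*Δ cells, which lack the mitochondrial phosphatidic acid carrier Ups1, without treatment, and 3 of each genotype after 3 h with tunicamycin, an inhibitor of N-glycosylation, at 1 μg/ml. The paper gives tunicamycin in DMSO and describes no vehicle control for these libraries. Tunicamycin, its vehicle and any difference in culture time therefore cannot be told apart in comparisons of treated with untreated cells.

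The glyoxylate cycle bypasses the decarboxylating steps of the TCA cycle, so that acetyl-CoA can be turned into malate and oxaloacetate. Gluconeogenesis then runs from oxaloacetate through phosphoenolpyruvate to hexose phosphates. In yeast most of these genes are repressed by glucose and are activated on ethanol, acetate or lactate by the zinc cluster factors Cat8 and Sip4, whereas *CIT2* is the classical target of the retrograde pathway, in which Rtg1 and Rtg3 act when mitochondria are dysfunctional.

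Before the levels, the sequences upstream of the genes are shown, since the known regulators bind there. The 600 bases before each start codon were read from the R64 reference (RefSeq) and searched on both strands for 4 motifs. The core of the carbon source responsive element (CSRE), to which Cat8 and Sip4 bind, was searched as CCNNNNNNCCG. It was present upstream of 8 of the 10 genes and in 24.7% of 5999 yeast promoters of the same length. It was not found upstream of *CIT2* and *JEN1*. The R box GGTCAC, to which Rtg1 and Rtg3 bind, was present upstream of *CIT2* and *IDP2*, and in 11.6% of all promoters. Upstream of *JEN1*, CAGCGTG, the core of the unfolded protein response element, occurred once, and 3.02% of all promoters held it. The stress response element AGGGG was found upstream of 6 of the genes and in 39.7% of all promoters. Some of these matches overlap one another, as upstream of *MLS1*, and a match describes the letters only. Below, the CSRE core nearest to the start codon of each of the 8 genes and all R boxes of the 10 genes are given on the coding strand with 15 bases on either side, and the capitals mark the motif:
ICL1 CSRE, chrV:287287-287327, minus strand, 398 bases before the start codon: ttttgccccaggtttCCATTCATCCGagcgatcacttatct
MLS1 CSRE, chrXIV:405902-405942, plus strand, 441 bases before: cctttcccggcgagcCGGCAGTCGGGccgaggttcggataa
MDH2 CSRE, chrXV:83272-83312, minus strand, 377 bases before: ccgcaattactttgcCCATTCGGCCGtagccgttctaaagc
PCK1 CSRE, chrXI:630775-630815, plus strand, 362 bases before: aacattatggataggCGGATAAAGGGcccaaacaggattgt
FBP1 CSRE, chrXII:875199-875239, minus strand, 432 bases before: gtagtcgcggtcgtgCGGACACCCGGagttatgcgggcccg
ACS1 CSRE, chrI:45218-45258, minus strand, 221 bases before: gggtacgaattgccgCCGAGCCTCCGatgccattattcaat
SFC1 CSRE, chrX:609267-609307, plus strand, 491 bases before: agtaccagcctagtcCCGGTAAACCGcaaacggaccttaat
IDP2 CSRE, chrXII:504273-504313, plus strand, 303 bases before: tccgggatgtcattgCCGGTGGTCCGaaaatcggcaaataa
CIT2 R box, chrIII:122654-122689, minus strand, 346 bases before: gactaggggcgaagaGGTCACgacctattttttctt
CIT2 R box, chrIII:122620-122655, minus strand, 312 bases before: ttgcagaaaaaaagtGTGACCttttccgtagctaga
IDP2 R box, chrXII:504223-504258, plus strand, 353 bases before: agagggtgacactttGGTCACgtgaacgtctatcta

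Each gene has 1 coding exon and overlaps no other annotated gene. None of the 31-base words of the 10 coding sequences occurs in another annotated coding sequence, so that the isoenzymes can be told apart in the counts. The library totals ranged from 4650828 to 7101983 counts (median 4936531), and levels are given in CPM, that is, counts divided by library size times a scaling factor (TMM, the trimmed mean of M-values). On this scale 3 counts were worth 0.417 to 0.696 CPM, depending on the library. The precision this gives covers counting error only. *UPS1* was read at least 185 times in every WT library and at most 2 times in any *ups1*Δ library. The genotypes also differed in markers of the strains: all 5 a-specific genes were lower and all 4 alpha-specific genes higher in *ups1*Δ cells, and *LYS2* and *MET17* had 0 counts in every WT library. The effect of *UPS1* loss, mating type and marker genes therefore cannot be told apart in any comparison between genotypes. The share of counts held by the top 50 genes was also lower in treated WT cells (16.2% to 17.9%) than elsewhere (22.9% to 26.8%). Scaling by library size alone in place of TMM moved the all-gene median of the tunicamycin response in WT cells from 0.052 to 0.57 (log2).

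In untreated WT cells, levels per kilobase of coding sequence spanned a wide range. *MDH2* and *CIT2* were at 212 ± 11.0 and 183 ± 24.8 CPM per kb (SD, n = 3) and overlapped each other. *ICL1* followed at 15.4 ± 0.638, *IDP2* at 8.84 ± 0.446, *ACS1* at 5.90 ± 0.733 and *PCK1* at 3.84 ± 0.516 CPM per kb, each apart from the next. The remaining genes, *JEN1*, *FBP1*, *MLS1* and *SFC1*, had means between 0.581 and 1.32 CPM per kb, and each overlapped its neighbour in the order. With tunicamycin, *CIT2* led in WT cells at 687 ± 89.6 CPM per kb, well above *MDH2* at 131 ± 16.7, and *SFC1* was last at 3.18 ± 0.428.

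**Figure D1:**
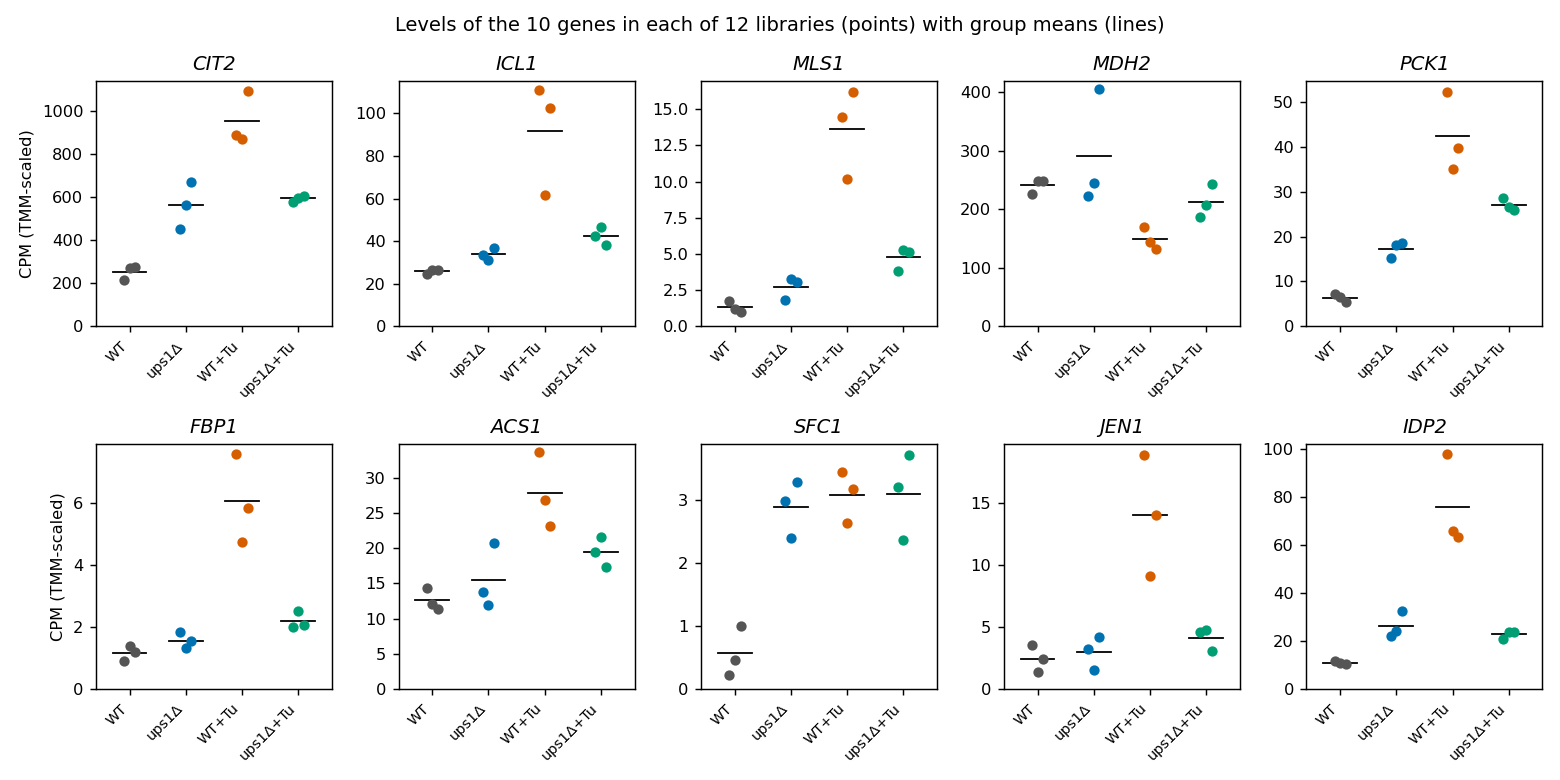
CPM (linear axis, starting at 0) of each of the 10 genes in the 12 libraries; points are libraries and lines the means of 3. For 8 of the 10 genes the 3 WT libraries with tunicamycin (WT+Tu) lie above all others, whereas *MDH2* is lowest there and *SFC1* is low only in untreated WT cells. How many of all genes are set apart in this way was not counted.

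With tunicamycin in WT cells, 9 of the 10 genes rose and *MDH2* fell. Of all 5785 genes tested by edgeR's quasi-likelihood test at an adjusted p below 0.05, 39.4% were higher and 37% lower. The median log2 fold change was 2.35 over the 10 genes and 0.052 over all genes. With the same treatment in *ups1*Δ cells, 15.2% of 5700 genes were higher and 11.9% lower. Of the 9 genes that could be tested there, only *PCK1* rose. This count of 1 was 3 without untreated *ups1*Δ replicate 3, 2 without treated *ups1*Δ replicate 3 and 3 by library size. The response differed between the genotypes for 9 of the 10 genes, all with a smaller or opposite change in *ups1*Δ cells (interaction test, 33.2% of 5828 genes lower and 32.9% higher). Since *MLS1*, *FBP1*, *SFC1* and *JEN1* had few counts in untreated WT cells, they entered the test in WT cells because of their counts with tunicamycin. *FBP1* entered the interaction test in the same way, and *MLS1* and *JEN1* the test in *ups1*Δ cells. With no filter on counts, the numbers called were the same, 10 with tunicamycin in WT cells and 9 in the interaction. With a filter of at least 10 counts in every library, 6 genes were tested in WT cells, of which 5 rose and *MDH2* fell. By library size alone 74.1% of all calls in WT cells were higher, against 51.6% with TMM scaling, and in *ups1*Δ cells the shares were 77.5% and 56.0%. For the difference in response, 29.4% of calls were higher by library size and 49.8% with TMM. In bulk RNA, a change in every cell and a change in some of the cells cannot be told apart.

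**Figure D2:**
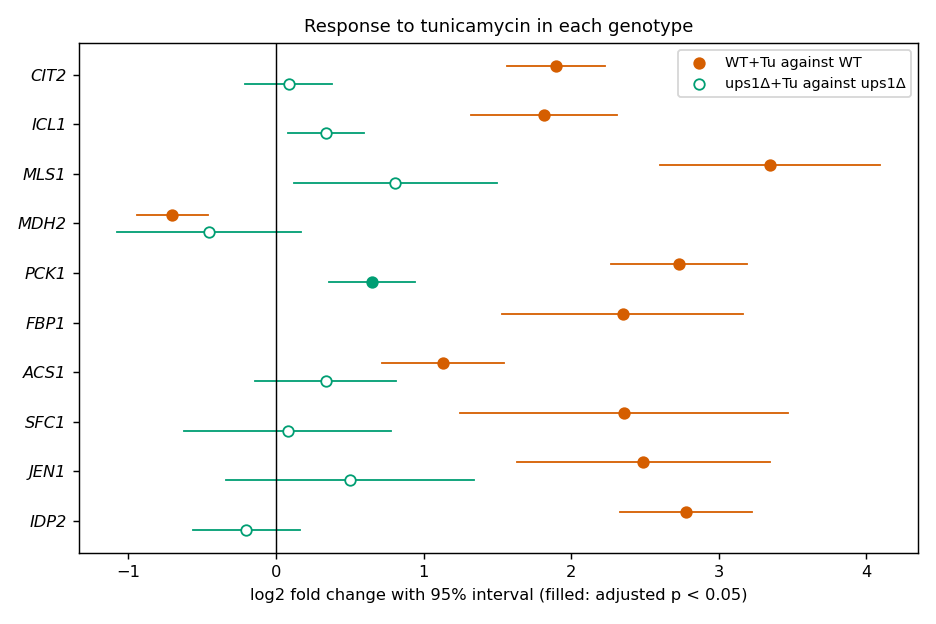
Log2 fold change with tunicamycin of the 10 genes in WT and in *ups1*Δ cells; points are estimates, lines 95% intervals, and filled points have an adjusted p below 0.05. The WT intervals of 9 genes lie above 0 and that of *MDH2* below it, and in *ups1*Δ cells only *PCK1* is filled. *FBP1* was not tested in *ups1*Δ cells.

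Among the enzymes of the glyoxylate cycle, *CIT2* encodes the peroxisomal citrate synthase. It had 213, 269 and 276 CPM in untreated WT cells, 450, 563 and 667 in untreated *ups1*Δ cells, 887, 870 and 1093 in WT cells with tunicamycin and 577, 596 and 604 in *ups1*Δ cells with tunicamycin. Thus the 4 groups were apart except for the *ups1*Δ groups, which overlapped. *CIT2* rose 3.73-fold with tunicamycin in WT cells (log2 fold change 1.90, SE 0.15, edgeR adjusted p = 1.68e-06). For *ups1*Δ the change was 0.085 on the log2 scale, with a 95% interval from -0.21 to 0.38 (edgeR adjusted p = 0.655). The difference between these responses was -1.84 (SE 0.20, edgeR adjusted p = 2.80e-06).

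*ICL1* encodes isocitrate lyase, which splits isocitrate into succinate and glyoxylate. Its levels were 24.6, 26.4 and 26.5 CPM in untreated WT cells, 33.5, 31.1 and 36.6 in untreated *ups1*Δ cells, 111, 61.7 and 102 in WT cells with tunicamycin and 42.6, 46.4 and 38.2 in *ups1*Δ cells with tunicamycin. No groups overlapped, and replicate 2 was the lowest of the treated WT libraries. The same library was the lowest of them for *CIT2*, *MLS1*, *PCK1*, *FBP1*, *SFC1* and *JEN1*, but not for *MDH2*, *ACS1* or *IDP2*. *ICL1* rose 3.52-fold in WT cells (log2 1.81, SE 0.22, edgeR adjusted p = 6.91e-05). The change in *ups1*Δ cells did not pass the threshold (log2 0.34, 95% interval from 0.084 to 0.60, edgeR adjusted p = 0.0531), and without untreated *ups1*Δ replicate 3 or treated *ups1*Δ replicate 3 it did (adjusted p = 0.0185 and 0.0453). The responses differed by -1.50 (SE 0.26, edgeR adjusted p = 2.05e-04).

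*MLS1*, which encodes malate synthase, had the largest fold change of the 10 genes in WT cells. From 5 to 8 counts per library (1.77, 1.16 and 1.00 CPM) it went to between 58 and 97 counts (14.5, 10.2 and 16.2 CPM), a 10.2-fold rise (log2 3.35, SE 0.33, edgeR adjusted p = 9.55e-06). Its *ups1*Δ levels were 1.83, 3.26 and 3.07 CPM without tunicamycin and 3.81, 5.28 and 5.16 with it. These groups did not overlap, and the log2 fold change was 0.81 with an interval from 0.12 to 1.50 (edgeR adjusted p = 0.0789). With 8, 15 and 14 counts in untreated *ups1*Δ cells, *MLS1* entered this test because of its counts with tunicamycin. The responses differed by -2.57 (SE 0.48, edgeR adjusted p = 2.87e-04).

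*MDH2*, for the cytosolic malate dehydrogenase that serves both pathways, went the other way. It had 226, 248 and 248 CPM in untreated WT cells and 170, 145 and 132 CPM with tunicamycin. It fell by 0.70 on the log2 scale (SE 0.11, edgeR adjusted p = 1.85e-04), although by library size alone the change was -0.18 and did not pass (adjusted p = 0.122). The *ups1*Δ libraries had 223, 245 and 405 CPM without and 187, 206 and 243 with tunicamycin, where replicate 3 of the untreated cells was far above the others. The response in *ups1*Δ cells was -0.45 (interval from -1.08 to 0.17, edgeR adjusted p = 0.233). The difference in response, 0.22, did not pass (interval from -0.38 to 0.82, edgeR adjusted p = 0.494), but without that replicate it was 0.54 and did (adjusted p = 0.00814), and by library size it was -0.17.

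Of the gluconeogenic enzymes, *PCK1* encodes phosphoenolpyruvate carboxykinase, which commits oxaloacetate to gluconeogenesis. Its levels were 7.09, 6.50 and 5.41 CPM in untreated WT cells, 15.1, 18.1 and 18.6 in untreated *ups1*Δ cells, 52.3, 35.1 and 39.7 in WT cells with tunicamycin and 28.7, 26.7 and 25.8 in *ups1*Δ cells with tunicamycin. All 4 groups were apart. *PCK1* rose 6.65-fold in WT cells (log2 2.73, SE 0.21, edgeR adjusted p = 1.34e-06) and 1.57-fold in *ups1*Δ cells (log2 0.65, SE 0.13, edgeR adjusted p = 0.00679), a difference of -2.11 (SE 0.25, adjusted p = 5.15e-06).

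*FBP1* encodes fructose-1,6-bisphosphatase, which makes fructose 6-phosphate. It had between 4 and 8 counts in the 6 untreated libraries, 44, 27 and 35 in WT cells with tunicamycin and 10, 18 and 10 in *ups1*Δ cells with tunicamycin. In CPM, the WT means were 1.16 ± 0.255 and 6.05 ± 1.43 (SD, n = 3), a log2 fold change of 2.35 (SE 0.36, edgeR adjusted p = 2.11e-04). The *ups1*Δ means were 1.56 ± 0.265 and 2.19 ± 0.270 CPM, without overlap, and this difference was not tested because the counts were too low. With all 12 libraries the responses differed by -1.87 (SE 0.50, edgeR adjusted p = 0.00451).

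The remaining 4 genes supply these pathways. *IDP2*, the cytosolic NADP-dependent isocitrate dehydrogenase, had 11.5, 10.9 and 10.4 CPM in untreated WT cells, 22.2, 24.1 and 32.4 in untreated *ups1*Δ cells, 98.0, 65.9 and 63.6 in WT cells with tunicamycin and 20.7, 23.8 and 23.7 in *ups1*Δ cells with tunicamycin. Only the *ups1*Δ groups overlapped. Its 6.87-fold rise in WT cells (log2 2.78, SE 0.20, edgeR adjusted p = 1.22e-06) stood beside a change of -0.20 in *ups1*Δ cells (interval from -0.56 to 0.16, adjusted p = 0.373). This difference of -3.01 (SE 0.27, edgeR adjusted p = 3.77e-07) was the largest of the 10 genes.

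*ACS1* encodes the acetyl-CoA synthetase used when glucose is low. It had 14.4, 12.1 and 11.4 CPM in untreated WT cells and 33.7, 26.8 and 23.2 with tunicamycin, a 2.19-fold rise (log2 1.13, SE 0.18, edgeR adjusted p = 2.92e-04). The *ups1*Δ libraries had 13.7, 12.0 and 20.8 CPM without and 19.5, 21.5 and 17.3 with tunicamycin. These overlapped (log2 0.34, interval from -0.14 to 0.82, edgeR adjusted p = 0.260), and without untreated replicate 3 the change was 0.61 and passed (adjusted p = 0.0160). The responses differed by -0.82 (SE 0.29, edgeR adjusted p = 0.0227), a call that was lost without WT replicate 3, *ups1*Δ replicate 3, treated WT replicate 1 or treated *ups1*Δ replicate 3 (values between -0.54 and -0.74).

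*SFC1* encodes the succinate-fumarate carrier of the inner mitochondrial membrane and *JEN1* the lactate and pyruvate permease of the plasma membrane. *SFC1* was low throughout, with 1, 2 and 5 counts in untreated WT cells, 13, 11 and 15 in untreated *ups1*Δ cells, 20, 15 and 19 in WT cells with tunicamycin and 16, 17 and 18 in *ups1*Δ cells with tunicamycin. Untreated WT cells therefore stood apart from the other 3 groups. *SFC1* rose in WT cells by 2.36 (SE 0.50, edgeR adjusted p = 0.00157), while the change in *ups1*Δ cells was 0.080 (interval from -0.62 to 0.78, adjusted p = 0.897), and the responses differed by -2.30 (edgeR adjusted p = 0.00274).

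*JEN1* had 3.55, 1.39 and 2.41 CPM in untreated WT cells, 3.21, 1.52 and 4.16 in untreated *ups1*Δ cells, 18.9, 9.12 and 14.0 in WT cells with tunicamycin and 4.62, 4.72 and 3.10 in *ups1*Δ cells with tunicamycin. Only the treated WT libraries stood above the rest. The rise in WT cells was 5.62-fold (log2 2.49, SE 0.38, edgeR adjusted p = 2.04e-04), whereas in *ups1*Δ cells the change was 0.50 (interval from -0.34 to 1.34, edgeR adjusted p = 0.340), and the responses differed by -2.02 (edgeR adjusted p = 0.00742). With 14, 7 and 19 counts in untreated *ups1*Δ cells, *JEN1* entered the test there because of its counts with tunicamycin.

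Without tunicamycin, *ups1*Δ cells had higher levels of *CIT2*, *ICL1*, *PCK1*, *SFC1* and *IDP2* than WT cells, and none of the 8 genes tested was lower. Of 5692 genes, 26.5% were higher and 25.8% lower. *PCK1* was 2.78-fold higher (log2 1.48, SE 0.19, edgeR adjusted p = 4.63e-04), *IDP2* 2.45-fold (log2 1.29, SE 0.18, adjusted p = 6.84e-04) and *CIT2* 2.26-fold (log2 1.18, SE 0.16, adjusted p = 8.14e-04). For *SFC1* the log2 difference was 2.29 (interval from 1.14 to 3.45, edgeR adjusted p = 0.00547). *ICL1* was 1.33-fold higher (log2 0.41, SE 0.11, edgeR adjusted p = 0.0144), and this call was lost when all 12 libraries were fitted together (log2 0.38, adjusted p = 0.125). *MDH2*, *ACS1* and *JEN1* did not pass, with log2 differences of 0.31, 0.33 and 0.29 and intervals from -0.26 to 0.88, from -0.20 to 0.85 and from -0.76 to 1.35. *MLS1* and *FBP1* had too few counts to be tested, and *SFC1*, with 1, 2 and 5 counts in WT cells, entered the test through the *ups1*Δ libraries where it was high. With no filter, its log2 difference was 2.30 (edgeR adjusted p = 0.00587).

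With tunicamycin, 8 of the genes were lower in *ups1*Δ than in WT cells. For *CIT2*, *ICL1*, *PCK1* and *IDP2* this was the reverse of the untreated difference, of which that of *ICL1* was lost in the joint fit of 12 libraries. *ACS1* and *JEN1* had not passed without treatment, and *MLS1* and *FBP1* had not been tested. *CIT2*, *ICL1*, *MLS1*, *PCK1*, *FBP1*, *ACS1*, *JEN1* and *IDP2* were the lower genes and *MDH2* was higher, where 33.6% of 5771 genes were lower and 32.7% higher. By library size 29.4% of all calls were higher, against 49.3% with TMM scaling. *IDP2* and *JEN1* differed most (log2 -1.75 for each, SE 0.18 and 0.31, edgeR adjusted p = 3.12e-05 and 6.52e-04). *MLS1* followed at -1.52 (edgeR adjusted p = 4.23e-04), then *FBP1* at -1.45 (0.00158), *ICL1* at -1.12 (0.00231), *CIT2* at -0.70 (0.00108), *PCK1* at -0.66 (0.00334) and *ACS1* at -0.53 (0.0172), with the adjusted p in parentheses. *FBP1*, with 10, 18 and 10 counts in treated *ups1*Δ cells, entered this test because of its counts in treated WT cells. The call of *ACS1* was lost without treated WT replicate 1 or treated *ups1*Δ replicate 1 or 3. *MDH2* was 1.41-fold higher (log2 0.50, SE 0.12, edgeR adjusted p = 0.00519), but by library size the difference was 0.20 and did not pass (adjusted p = 0.165). *SFC1* did not pass (log2 -0.036, interval from -0.71 to 0.64, edgeR adjusted p = 0.922). The comparisons share libraries, so they do not bear on one another as separate evidence.

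**Figure D3:**
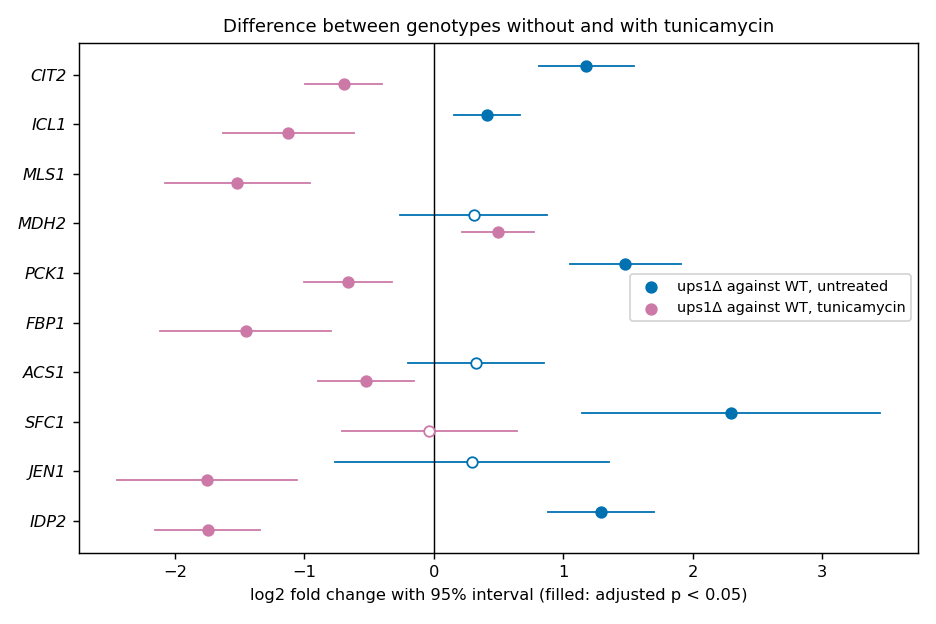
Log2 difference between *ups1*Δ and WT cells for the 10 genes, without and with tunicamycin; points are estimates, lines 95% intervals, and filled points have an adjusted p below 0.05. *CIT2*, *ICL1*, *PCK1* and *IDP2* lie above 0 without and below 0 with tunicamycin; *MLS1* and *FBP1* were not tested without it.

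Several of the enzymes among the 10 gene products have isoenzymes in another compartment, whose genes did not all move with theirs. Of 9 isoenzyme genes, 6 rose and 2 fell with tunicamycin in WT cells, while 1 rose and 3 fell in *ups1*Δ cells. Over all genes, 39.4% rose and 37% fell in WT and 15.2% and 11.9% in *ups1*Δ cells. *CIT3*, a mitochondrial citrate synthase, rose by 3.28 in WT cells (log2, SE 0.31, edgeR adjusted p = 7.40e-06). It had 5 to 18 counts per untreated WT library and entered the test because of its counts with tunicamycin. *CIT1*, the main mitochondrial form, was at 159 CPM per kb in untreated WT cells, close to *CIT2*, and at 275 with tunicamycin (log2 0.79, edgeR adjusted p = 6.60e-05). In *ups1*Δ cells *CIT1* went from 322 to 178 CPM per kb (log2 -0.85, edgeR adjusted p = 0.0244), and untreated *ups1*Δ replicate 3 was its highest library at 626 CPM.

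*ACS2*, the acetyl-CoA synthetase used on glucose, fell in WT cells from 314 to 118 CPM per kb (log2 -1.42, SE 0.14, edgeR adjusted p = 8.62e-06), as *ACS1* rose from 5.90 to 13.0. *DAL7*, another malate synthase with a role in allantoin use, rose by 1.09 (edgeR adjusted p = 4.26e-04). The peroxisomal *IDP3* rose by 1.23 and the mitochondrial *IDP1* by 0.73 (edgeR adjusted p = 6.52e-04 and 1.45e-04). *ICL2*, which encodes a 2-methylisocitrate lyase, rose in both genotypes, by 0.56 in WT and by 0.40 in *ups1*Δ cells (edgeR adjusted p = 0.0117 and 0.0452). Among the malate dehydrogenases, the mitochondrial *MDH1* fell by 0.43 in WT cells (edgeR adjusted p = 0.0165), and the peroxisomal *MDH3* passed no test in any comparison, with values between -0.10 and 0.05.

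**Figure D4:**
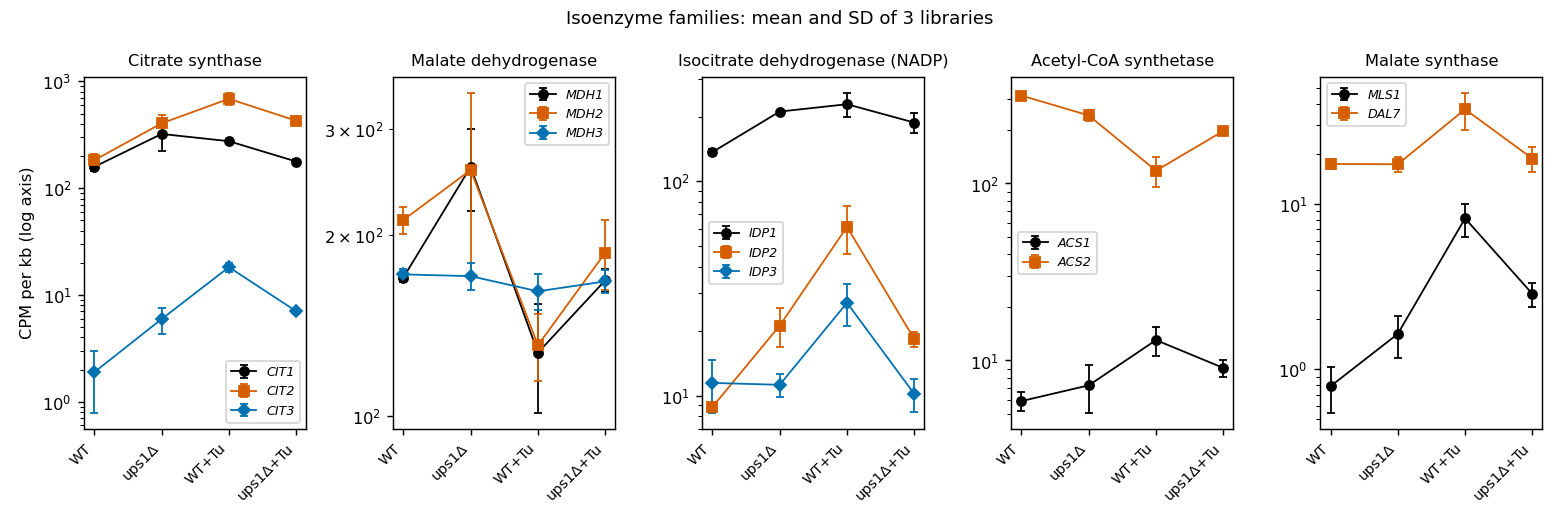
CPM per kb of coding sequence (log axis) of 5 isoenzyme families in the 4 groups; points are means and bars the SD of 3 libraries, and lines join the groups for each gene. *CIT2* goes from 183 in WT to 687 CPM per kb in WT with tunicamycin, and *ACS2* from 314 to 118.

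The regulators of these genes varied in their own transcripts. In WT cells with tunicamycin, 10 of 18 rose and 2 fell, where 39.4% of all genes tested rose and 37% fell. *SIP4* went from 1.55, 2.32 and 2.61 CPM to 24.5, 15.1 and 27.9 (log2 3.35, SE 0.33, edgeR adjusted p = 8.26e-06), and *CAT8* from 4.21, 4.18 and 5.61 to 36.3, 31.6 and 34.9 (log2 2.85, SE 0.18, edgeR adjusted p = 3.60e-07). Both factors were well apart between the groups. With 7 to 13 counts per untreated WT library, *SIP4* entered this test because of its counts with tunicamycin. *SIP4* in *ups1*Δ cells had 3.21, 2.61 and 2.85 CPM without and 3.61, 2.78 and 2.48 with tunicamycin (log2 0.04, edgeR adjusted p = 0.949). *CAT8* was higher in untreated *ups1*Δ than in WT cells (log2 1.31, edgeR adjusted p = 0.0352), with 6.64, 8.05 and 19.5 CPM, of which replicate 3 was the highest by far. In *ups1*Δ cells with tunicamycin *CAT8* had 17.3, 21.1 and 12.8 CPM. Of the 18 regulators, 7 were higher and 0 lower in untreated *ups1*Δ than in WT cells, against 26.5% and 25.8% of all genes. The glucose repressor genes *MIG2* and *MIG3* had means of 71.7 and 26.4 CPM in untreated WT cells. In untreated *ups1*Δ cells their means were 218 and 80.8 CPM, without overlap and again with replicate 3 highest.

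*HXK2*, the hexokinase that takes part in glucose repression, had between 2225 and 2410 CPM in 9 libraries and 449, 807 and 462 CPM in WT cells with tunicamycin (log2 -2.03, SE 0.22, edgeR adjusted p = 2.26e-05). *MIG1*, a repressor in the same pathway, rose in WT cells by 1.32 (edgeR adjusted p = 3.32e-05). *ADR1*, an activator of *ADH2* and of peroxisomal genes, did not pass in WT cells (log2 0.05, edgeR adjusted p = 0.833) and rose in *ups1*Δ cells by 1.16 (edgeR adjusted p = 0.0171). *RDS2* passed no test in any comparison.

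Of 10 retrograde pathway genes, 6 were higher and none lower in untreated *ups1*Δ cells, against 26.5% and 25.8% of all genes tested. *IDH1* and *IDH2*, subunits of the mitochondrial NAD-dependent isocitrate dehydrogenase, were higher by 2.43 and 1.97 (log2, SE 0.08 each, edgeR adjusted p = 1.10e-07 and 4.11e-07), and *PDH1*, a 2-methylcitrate dehydratase, by 2.18 (adjusted p = 2.11e-04). With tunicamycin, *IDH1* and *IDH2* were also higher in *ups1*Δ than in WT cells (log2 1.20 and 1.19, edgeR adjusted p = 1.12e-05 and 1.42e-05). Between these treated genotypes 4 of the 10 genes were higher and 3 lower, against 32.7% and 33.6% of all genes. In WT cells 5 rose and 2 fell with tunicamycin (39.4% and 37% of all genes). In *ups1*Δ cells 1 rose and 4 fell (15.2% and 11.9%). There the means of *IDH1* and *IDH2* went from 1192 to 685 and from 1262 to 632 CPM. The transcript of *RTG3* was higher by 0.72 in untreated *ups1*Δ cells and rose by 1.43 with tunicamycin in WT cells (edgeR adjusted p = 6.00e-04 and 9.46e-07), while *RTG1* passed no test and *RTG2* passed only between the genotypes with tunicamycin and in the difference in response.

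Neighbouring pathways of C2 and fatty acid use were also followed. Among 19 other genes of ethanol, acetate, C3 and shuttle metabolism, 15 rose and 2 fell with tunicamycin in WT cells (median log2 1.28), and 1 rose and 1 fell of 18 in *ups1*Δ cells. The shares over all genes were 39.4% and 37% in WT and 15.2% and 11.9% in *ups1*Δ cells. The carnitine carrier *CRC1*, the carnitine acetyltransferase *YAT2* and the lactate dehydrogenase *CYB2* changed most in WT cells, by 3.24, 3.13 and 2.79 (edgeR adjusted p = 1.40e-04, 1.93e-05 and 2.96e-07). Of 12 genes of peroxisomal fatty acid oxidation, 11 rose in WT cells (median 1.29) and 1 of 11 in *ups1*Δ cells, against 39.4% and 15.2% of all genes. *POT1*, 3-ketoacyl-CoA thiolase, and *POX1*, acyl-CoA oxidase, rose by 4.37 and 3.94 (edgeR adjusted p = 8.06e-05 and 1.05e-04), both from means below 2 CPM. *CRC1*, *POT1* and *POX1* had only 4 to 7, 1 to 4 and 5 to 10 counts per untreated WT library. They entered the test because of their counts with tunicamycin.

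The GID ubiquitin ligase removes Fbp1, Icl1, Mdh2 and Pck1 proteins when glucose returns. Its 9 genes all rose with tunicamycin in WT cells, 8 of 9 were higher in untreated *ups1*Δ cells, and 1 of 9 rose in *ups1*Δ cells with tunicamycin. Of all genes, 39.4%, 26.5% and 15.2% were higher in these comparisons. *GID10*, a substrate receptor, had 2.22, 2.78 and 2.41 CPM in untreated WT cells and 40.5, 21.9 and 30.4 with tunicamycin (log2 3.63, SE 0.30, edgeR adjusted p = 2.67e-06). With 10 to 12 counts per untreated WT library, it entered this test because of its counts with tunicamycin. In *ups1*Δ cells it had 8.48, 9.57 and 11.8 CPM without and 8.63, 7.22 and 6.19 with tunicamycin (log2 -0.43, edgeR adjusted p = 0.166). The receptor *VID24* rose in both genotypes, by 2.28 in WT and 0.80 in *ups1*Δ cells (edgeR adjusted p = 9.68e-06 and 8.33e-04). Protein levels were not measured in these files.

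**Figure D5:**
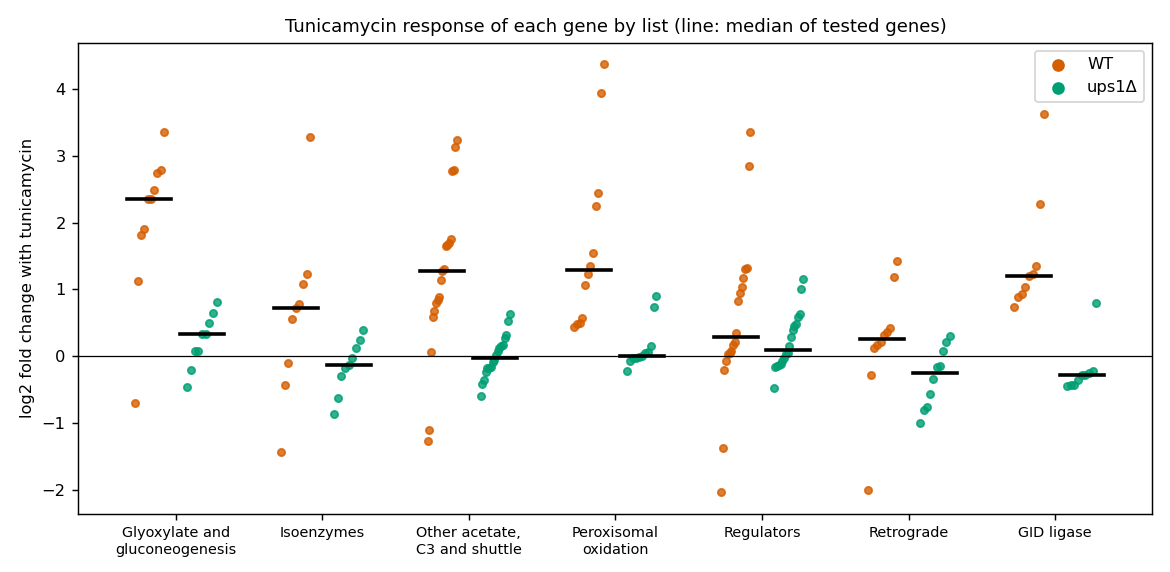
Log2 fold change with tunicamycin in WT and *ups1*Δ cells of each tested gene of 7 lists; points are genes and lines the median. The median of the glyoxylate and gluconeogenesis genes is 2.35 in WT cells, where *MDH2* is the one below 0, and 0.34 over the 9 genes tested in *ups1*Δ cells.

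The genes outside the lists with the most similar profiles were sought among 5355 genes over the 12 libraries, which include the same 4 groups for every gene, so that these correlations describe the groups more than the libraries. *BAT2* was closest to *CIT2* (Pearson r = 0.97 of log2 CPM), *SBE2* to *ICL1* (0.99), *PDR8* to *MLS1* (0.99), *HEF3* to *PCK1* (0.99) and *RGA1* to *FBP1* (0.99). For *IDP2* the closest were *HSP78* and *GDH2* (0.99 each), for *ACS1* *PUT1* (0.96), for *SFC1* *VHR1* (0.97) and for *JEN1* *REC107* (0.97). *MDH2* had the weakest best match, *SSK2* (0.94).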

How the data were processed

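RNA was sequenced by the authors from 12 libraries, 3 per group. Expected counts, estimated by the authors with kallisto on sacCer3, were deposited as whole numbers without normalization. The deposited comparison tables of the authors' own DESeq2 results (normalized counts, fold changes, p-values) were not used. Tests used the robust quasi-likelihood F test of edgeR 4.0.16 (R 4.3.3) after filterByExpr and TMM, with a Benjamini-Hochberg threshold of 0.05. A pairwise test had 6 libraries and the interaction all 12. CPM is counts over library size times its TMM factor, and CPM per kb divides by the RefSeq coding length. Intervals are 95%. The steps were tested on simulated data in which few genes changed, with both directions equally likely. With tunicamycin in WT cells 4417 of 5785 genes were called, so the simulation does not test the scaling there. Results were recomputed with DESeq2 1.42.0, with its size factors or plain library sizes in edgeR, without a filter or with 10 counts required in each library, with a joint fit of the 12 libraries, with a replicate block, and without each library in turn. The 10 genes and all lists were chosen with earlier results of these data known. All 10 are named. For the other lists, isoenzymes and regulators fixed by name and up to 3 called genes with the largest change were eligible, and for likeness the 3 genes of highest r among those with a mean of at least 10 CPM. Labels do not say whether replicates were separate cultures, so p-values measure the spread between these libraries.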

Additional observations from a re-analysis of the deposited data

Results flagged for a closer look

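For 9 genes the response to tunicamycin differed between WT and *ups1*Δ cells in edgeR's interaction test over the 12 libraries, given as the log2 response of *ups1*Δ minus that of WT cells. The differences were -1.84 for *CIT2*, -1.50 for *ICL1*, -2.57 for *MLS1*, -2.11 for *PCK1*, -1.87 for *FBP1*, -0.82 for *ACS1*, -2.30 for *SFC1*, -2.02 for *JEN1* and -3.01 for *IDP2*. Of these, *ACS1* had the highest adjusted p (0.0227). Over all 5828 genes in this test, 33.2% were lower and 32.9% higher.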

How the results depend on the processing

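Among the 10 genes, the numbers called were 5 between untreated genotypes, 10 and 1 with tunicamycin in WT and *ups1*Δ cells, 9 between genotypes with tunicamycin and 9 in the interaction. Of all genes tested, 26.5% were higher and 25.8% lower between untreated genotypes. With tunicamycin these shares were 39.4% and 37% in WT and 15.2% and 11.9% in *ups1*Δ cells. Between treated genotypes they were 32.7% and 33.6%, and in the interaction 32.9% and 33.2%. A filter of at least 10 counts in every library left 6 genes tested with tunicamycin in WT cells, all 6 called, and 5 of 6 called in the interaction. By library size alone 3 genes were called with tunicamycin in *ups1*Δ cells, and *MDH2* turned to -0.17 in the interaction. Leaving out 1 library at a time gave 5 to 6 calls between untreated genotypes, 10 in WT cells, 1 to 3 in *ups1*Δ cells, 8 to 9 between treated genotypes and 8 to 9 in the interaction. Directions changed only for values that had passed no test. These log2 values ranged from -0.015 to 0.47 for *MDH2* and from -0.043 to 0.64 for *JEN1* between untreated genotypes, from -0.057 to 0.22 for *CIT2* and from -0.069 to 0.27 for *SFC1* with tunicamycin in *ups1*Δ cells, and from -0.17 to 0.17 for *SFC1* between treated genotypes. The replicate block called 5, 10, 1, 9 and 9 genes, as without it. Same-numbered libraries deviated together with correlations from -0.24 to 0.11 over 5823 genes, so the numbers are not taken to pair them. *SFC1*, *MLS1* and *FBP1* had under 10 counts in every untreated WT library, which limits their precision.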
